A study of Homo sapiens with 4 samples.

Results

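The MYC, MAX and MXD network was followed in RNA sequencing of U87MG cells, an established human glioblastoma line, through 9 genes that were listed by name: *MYC*, *MYCN*, *MAX*, *MXD1*, *MXD3*, *MXD4*, *MXI1*, *MNT* and *MLX*. All 9 were among the 57905 genes counted, 8 of them had reads, and the same 8 passed the filter on low counts, which kept 16416 genes. The 4 samples were 2 of wild type cells left untreated (control) and 2 of the same cells given 50 nM chaetocin for 24 h. Chaetocin is a fungal compound that the study's paper describes as an unspecific inhibitor of histone methyltransferases and also of thioredoxin reductase, an enzyme that counters oxidative stress. The chaetocin was dissolved in DMSO, and the labels describe the control cells as untreated, so the solvent and the drug cannot be told apart. No label says whether samples of a group came from separate cultures, and p-values measure only the spread between these samples, which may be technical.

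The proteins of this network bind DNA in pairs. MYC and its relative MYCN need MAX as a partner to bind the E-box, a short DNA element, and then activate genes of ribosome production, nucleotide synthesis and cell division. The MXD proteins (MXD1, MXD3, MXD4 and MXI1, also called MXD2) and MNT take MAX from the same pool, bind the same element and recruit the SIN3 and histone deacetylase corepressors. MLX is a second partner, which pairs with MondoA (encoded by *MLXIP*), ChREBP (*MLXIPL*) and some of the repressors and so joins the network to glucose sensing. *MYC* is often raised in glioma, and *MXI1* was studied early as a candidate tumour suppressor there.

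The libraries held between 21241984 and 32590479 counts. Levels are given in CPM, for which each library was brought to one size with TMM factors that correct for its composition. On this scale 3 reads correspond to 0.0843 to 0.138 CPM, a floor that covers counting error only. Among 10 glial and glioma markers, *VIM* and *CD44* lay between 797 and 2793 CPM, *GFAP* was at 1.02 CPM or below, *AQP4* had 0 reads, and *S100B* and *SOX2* had 0 reads in untreated cells and at most 5 with chaetocin. The summed level of this list was 5545 and 4838 CPM in untreated cells and 3244 and 1992 CPM with chaetocin, and 1 of its 7 tested genes was called, *SLC1A3*, which was lower (adjusted p = 0.0266, edgeR's quasi-likelihood test). The 7 leukocyte markers summed to 0.491 and 0.591 CPM in untreated cells and to 2.62 and 3.26 CPM with chaetocin, with *CD3E* at 0 reads, and *PTPRC* and *ITGAM* had 0 or 1 read in each untreated library and 15 to 29 with chaetocin. Both were called higher (adjusted p = 0.0412 and 0.0341, edgeR), having passed the low-count filter through the treated samples, and the other 2 tested leukocyte markers were not called. Endothelial markers summed to 9.37 and 14.3 CPM in untreated cells against 7.39 and 8.60 CPM with chaetocin, epithelial markers to 2.66 and 2.26 against 4.45 and 3.91 CPM, and neuronal markers to 62.5 and 57.1 against 53.5 and 37.1 CPM. In the neuronal list *TUBB3* was called higher, at 3.76 ± 1.03 CPM in untreated cells and 11.5 ± 0.791 CPM with chaetocin (SD, n = 2 each, edgeR's adjusted p = 0.0306). The other markers of that list that could be tested, *SNAP25* and *SYT1*, had log2 fold changes of -0.95 and -0.37 and were not called (adjusted p = 0.230 and 0.275, edgeR). The part of these shifts in the differences described here was not tested, and in bulk RNA fewer cells of a type and less RNA per cell cannot be told apart.

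The E-box itself is written in the start regions of some of these genes, so part of the network carries the element that the network binds. RefSeq start regions on GRCh38.p14, from 250 bases before to 50 bases after the start, were found for 8 of the 9 genes, all but *MYC*, in 11 windows. The palindrome CACGTG stood in the windows of *MXD4*, *MNT* and *MLX*. The variant CACGCG, searched on both strands and therefore also as CGCGTG, stood in those of *MXD3* and in 1 of the 3 windows of *MXI1*. The stretches below show each match in capitals, since these are the letters that a MYC-MAX or MXD-MAX pair would read. The matches began 238 bases before the start in *MXD4* (chr4:2262317-2262359, minus strand), 193 before it in *MNT* (chr17:2401223-2401278, minus strand) and 50 before it in *MLX* (chr17:42567025-42567080, plus strand), and 8 bases after it in *MXD3* (chr5:177312727-177312756, minus strand) and *MXI1* (chr10:110225992-110226021, plus strand).
*MXD4*: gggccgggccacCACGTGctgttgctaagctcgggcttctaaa
*MNT*: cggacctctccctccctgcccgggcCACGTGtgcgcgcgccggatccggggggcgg
*MLX*: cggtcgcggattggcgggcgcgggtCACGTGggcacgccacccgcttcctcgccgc
*MXD3*: aaaaggccatttCGCGTGcctccagggtat
*MXI1*: aggtaaacaaacCACGCGcgggctgcccgc
CACGTG stood in 7.26% of the 35116 windows of all genes and in 9.11% of the 16075 windows of genes tested here, and CACGCG in 11.4% and 16.6%. A match says that the letters are there and not that the site is bound.

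The activator *MYC* (ENSG00000136997, chromosome 8, 127735434 to 127741434 on GRCh38 in GENCODE v29) had lower levels with chaetocin. Its level was 99.6 and 126 CPM in untreated cells and 77.5 and 75.9 CPM after chaetocin. Both treated samples lay below both controls and close to each other, whereas the controls differed from each other by more than the treated samples did. The log2 fold change was -0.56 (standard error 0.16), a level 0.679 times that of the controls, with an unadjusted 95% interval of 0.526 to 0.876 times. The adjusted p was 0.109 (edgeR's quasi-likelihood test with Benjamini-Hochberg adjustment over all genes tested), so the difference did not pass the threshold of 0.05. Without chaetocin sample 1 or chaetocin sample 2 *MYC* was called lower, with adjusted p-values of 0.0214 and 0.0454 at log2 fold changes of -0.57 and -0.55, and it was not called without control sample 1 (-0.73, adjusted p = 0.224) or control sample 2 (-0.39, adjusted p = 0.669). Over all genes tested, 17.0% were called without chaetocin sample 1, 9.82% without chaetocin sample 2, 1.74% without control sample 1 and 2.1% without control sample 2.

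*MYCN*, the relative that drives growth in the developing nervous system, had 0 reads in all 4 samples, which allows a level of up to 0.0843 to 0.138 CPM depending on the library. Its antisense neighbour *MYCNOS*, which shares 98 exonic bases with it, had 1 and 2 reads in untreated cells and 9 and 1 with chaetocin. *MYCL*, the remaining relative of *MYC* and not among the 9 genes, had 2 and 0 reads in untreated cells and 8 and 13 with chaetocin, and it passed the low-count filter through the treated samples (it was not called by edgeR). Among the MYC genes, reads in U87MG cells therefore came almost entirely from *MYC* itself.

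**Figure D1:**
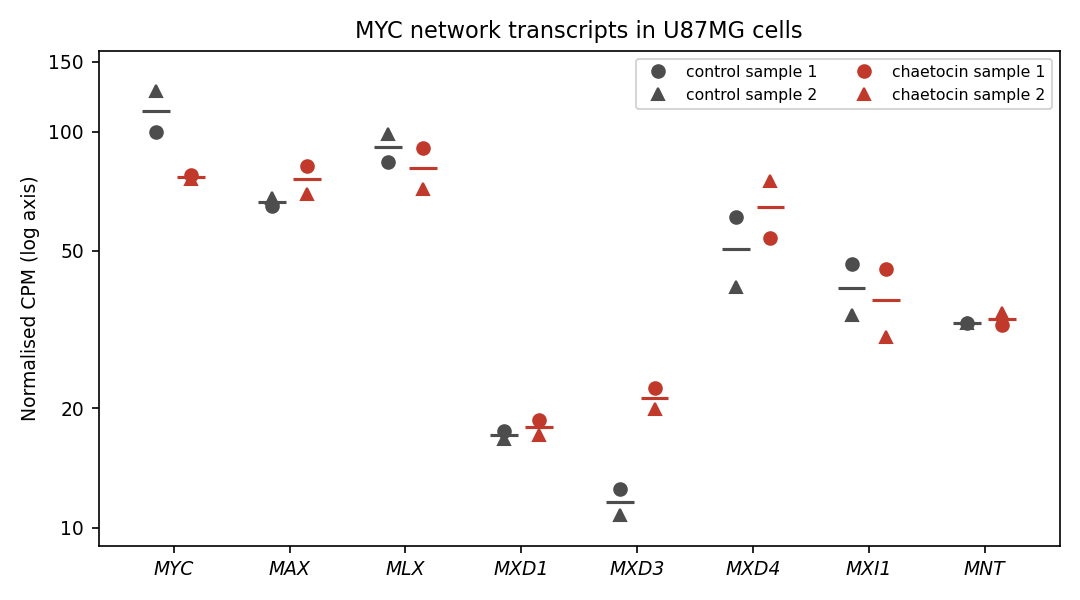
Normalised CPM (log axis) of the 8 network genes with reads, 1 point per sample, in grey for control and red for chaetocin, with circles for sample 1, triangles for sample 2 and a line at each group's mean. *MYC* was lower and *MXD3* higher in both chaetocin samples, and *MXD4* and *MXI1* spread more between samples of a group than between the groups.

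*MAX*, the shared partner without which neither MYC nor the MXD proteins bind DNA, was at 64.7 and 68.1 CPM in untreated cells and at 82.0 and 69.5 CPM with chaetocin. The treated samples lay above the controls, sample 2 by a small margin. The log2 fold change was 0.19 (standard error 0.15, adjusted p = 0.521 in edgeR's quasi-likelihood test), with a 95% interval of -0.16 to 0.53, and it ran from 0.07 without chaetocin sample 1 to 0.30 without chaetocin sample 2. *MLX*, the partner of MondoA and ChREBP, was at 83.6 and 98.8 CPM in untreated cells and at 90.8 and 71.5 CPM with chaetocin, and the groups overlapped. Its log2 fold change of -0.17 had an interval of -0.56 to 0.22, and it was -0.35 without chaetocin sample 1, -0.30 without control sample 1, -0.054 without control sample 2 and -0.015 without chaetocin sample 2. *MLX* shares 770 exonic bases with *PSMC3IP* on the opposite strand, which was at 12.1 and 13.7 CPM in untreated cells and at 21.8 and 14.7 CPM with chaetocin. Whether the counting used strand is not given in the sources used here, so reads of such overlapping pairs cannot be told apart.

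Among the repressors, *MXD3* had the widest difference between the groups. MXD3 is the MXD protein known to be made in dividing cells during S phase, whereas MXD1 and MXD4 are known mainly from cells that stop dividing and differentiate. Its gene (ENSG00000213347) spans bases 177301461 to 177312757 of chromosome 5, minus strand, on GRCh38. Its level was 12.5 and 10.8 CPM in untreated cells and 22.5 and 19.9 CPM with chaetocin. The groups stood well apart, and the treated mean was 1.82 times the control mean. The log2 fold change was 0.87 (standard error 0.19), with an unadjusted 95% interval of 1.36 to 2.45 times, and the adjusted p of 0.0560 in edgeR's quasi-likelihood test lay just above the threshold. DESeq2's Wald test, the tool of the study's methods, gave 0.86 with an adjusted p of 0.0109. The log2 fold change of *MXD3* was 0.78 without chaetocin sample 1 and 0.95 without chaetocin sample 2. It was 0.96 without control sample 1 and 0.75 without control sample 2. Each of these fits leaves 1 sample in a group.

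The exons of *MXD3* overlap those of *RAB24* over 926 bases on the same strand and those of *PRELID1* over 1158 bases on the opposite strand. *RAB24*, a small GTPase gene, was at 4.50 and 4.07 CPM in untreated cells and at 6.98 and 3.46 CPM with chaetocin. *PRELID1*, a mitochondrial lipid transfer gene, was at 149 and 130 CPM in untreated cells and at 132 and 157 CPM with chaetocin. For each of these neighbours the groups overlapped.

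*MXD4*, the repressor with the most reads here, was at 60.9 and 40.4 CPM in untreated cells and at 53.9 and 75.0 CPM with chaetocin. The groups overlapped, and chaetocin sample 1 lay below control sample 1. The log2 fold change of 0.35 had a 95% interval of -0.18 to 0.88 (adjusted p = 0.437, edgeR's quasi-likelihood test), and it ranged from 0.07 without control sample 2 to 0.66 without control sample 1. *MXI1* was at 46.3 and 34.4 CPM in untreated cells and at 45.0 and 30.2 CPM with chaetocin, so that sample 1 was the higher in each group and the groups overlapped. Its log2 fold change of -0.10 became 0.11 without control sample 1 and 0.15 without chaetocin sample 2, so no direction can be given.

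*MXD1*, the founding member of the family, was at 17.5 and 16.7 CPM in untreated cells and at 18.7 and 17.2 CPM with chaetocin. *MNT*, the most widely expressed of the MAX-binding repressors, was at 32.9 CPM in both control samples and at 32.5 and 34.8 CPM with chaetocin. The groups overlapped for both genes. The 95% interval of the log2 fold change was -0.33 to 0.46 for *MXD1* and -0.31 to 0.38 for *MNT*, which leaves room for a change of up to 1.38 times and 1.30 times upward. With single samples left out, the log2 fold change of *MXD1* ran from 0.0059 without chaetocin sample 1 to 0.12 without chaetocin sample 2.

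No member was called at an adjusted p under 0.05 by edgeR, against 1.85% of all genes tested (1.11% higher and 0.743% lower). At an unadjusted p under 0.05, 2 of the 8 members passed, *MXD3* upward and *MYC* downward, against 20.3% of all genes (10.9% upward and 9.43% downward). DESeq2 called 1 member, *MXD3*, and 5.53% of all genes. Both chaetocin samples lay on one side of both controls for 3 of 8 members (*MYC* lower, *MAX* and *MXD3* higher), against 52.7% of all genes tested. These counts are not a result about the members as a group. Their median log2 fold change was 0.05, and that of all genes tested was 0.01.

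**Figure D2:**
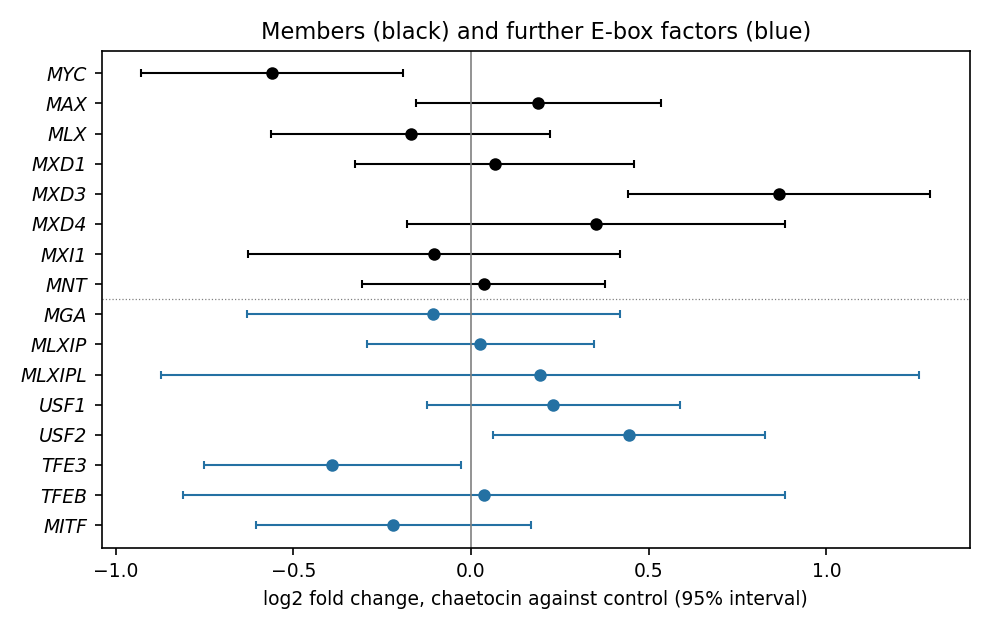
Log2 fold change of chaetocin against control (x axis), with unadjusted 95% intervals, for the 8 members that could be tested (black) and 8 further E-box binding factors (blue). The interval of *MYC* lies below 0 and that of *MXD3* above it, and those of the other 6 members cross 0. *MYCL* is left out because of its low counts.

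Activators and repressors were then compared within each sample, a comparison in which library size cancels. The log2 ratio of *MYC* to *MXD3* (in CPM) was 2.996 and 3.55 in untreated cells and 1.78 and 1.93 after chaetocin, a difference of the means of -1.42. The ratio of *MYC* to *MAX* was 0.62 and 0.89 against -0.08 and 0.13, with a difference of -0.73. For *MXD1* the difference was -0.62, for *MNT* -0.58, for *MXD4* -0.91, for *MXI1* -0.43 and for *MLX* -0.38. The groups did not overlap for any of these partners except *MXI1*, where chaetocin sample 2 (1.33) lay above control sample 1 (1.10). All 7 ratios share the same *MYC* values, so they are not 7 separate observations. *MYC* itself was lower in both treated samples, so a ratio of *MYC* to a gene that hardly differs also separates the groups. For *MXD1* and *MNT* (log2 fold changes 0.07 and 0.04), the differences of -0.62 and -0.58 lay close to that of *MYC* alone (-0.56).

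Against the mean log2 level of the 5 repressors (the 4 *MXD* genes and *MNT*), *MYC* stood at 1.78 and 2.39 in untreated cells and at 1.28 and 1.31 after chaetocin. The difference of the means was -0.79 on the log2 scale, with standard deviations of 0.43 (control, n = 2) and 0.02 (chaetocin, n = 2), and the treated samples lay below both controls. It was -0.49 without control sample 2 and -1.09 without control sample 1. The control samples stood further apart than the nearer of them stood from the treated samples. Per length of exon, the log2 ratio of *MYC* to the summed repressors was 0.26 and 0.96 in untreated cells and -0.14 and -0.13 with chaetocin. The level of *MYC* per kilobase thus exceeded the sum of its repressors in both control samples and lay below it in both treated samples, but with the longest coding transcript as the length it lay below the sum in control sample 1 too (-0.05, against 0.64 in control sample 2 and -0.49 and -0.52 with chaetocin). No p-value is given for these sums, since 2 samples against 2 cannot give an exact permutation p (two-sided) under 0.333.

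**Figure D3:**
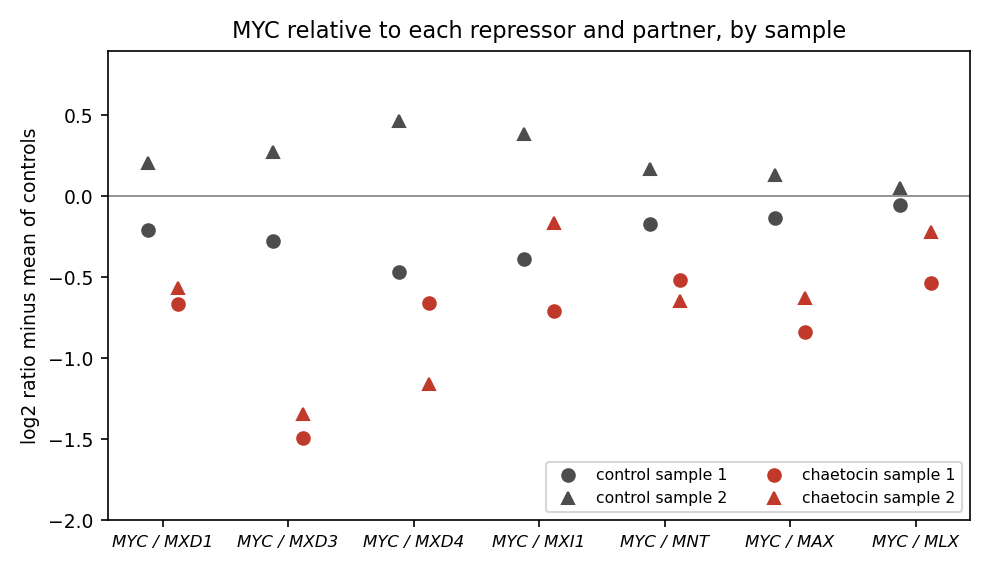
Log2 ratio of *MYC* to each repressor and partner in each sample, minus the mean of the control samples (y axis), in grey for control and red for chaetocin, with circles for sample 1 and triangles for sample 2. The chaetocin samples lie below the controls for every gene except *MXI1*, and lowest for *MXD3*.

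Ordered by level per length (CPM divided by the kilobases of exon in GENCODE v29, RPKM), *MYC* led in untreated cells with 37.6 ± 6.29 (SD, n = 2). *MLX* followed at 21.4 ± 2.51, *MAX* at 15.0 ± 0.55, *MXI1* at 8.76 ± 1.83, *MXD4* at 7.17 ± 2.05, *MNT* at 3.77, *MXD1* at 2.70 ± 0.09 and *MXD3* at 2.26 ± 0.23. Only *MXI1* and *MXD4* overlapped as neighbours in that order. With chaetocin, *MYC* still led at 25.6 ± 0.38 RPKM, and *MXD3*, last in untreated cells, stood above *MNT* and *MXD1* at 4.12 ± 0.36. In the treated samples the neighbours *MLX* and *MAX*, *MXD4* and *MXI1*, and *MXD3* and *MNT* overlapped. When the longest coding transcript was used as the length, 4 genes changed place in the control order (*MXI1* with *MXD4*, *MXD1* with *MXD3*) and none in the chaetocin order.

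Further factors that bind E-boxes or pair with these proteins were listed beside the members, and 0 of the 9 were called. *USF2*, which binds the same CACGTG element as a partner of USF1, was at 62.7 and 75.6 CPM in untreated cells and at 103 and 85.1 CPM with chaetocin, a log2 fold change of 0.44 (adjusted p = 0.191, edgeR's quasi-likelihood test). DESeq2 did not call it (adjusted p = 0.240). The log2 fold change of *USF2* was 0.57 without chaetocin sample 2 and 0.30 without chaetocin sample 1. It was 0.30 without control sample 1 and 0.58 without control sample 2. The median of the 9 genes, 0.04 with all samples, ran from -0.14 to 0.18 when single samples were left out. *MLXIP*, which encodes MondoA, was at 76.9 and 80.7 CPM against 78.0 and 82.5 CPM, and *MGA*, a large repressor that pairs with MAX, at 60.1 and 79.4 CPM against 50.8 and 78.6 CPM. For both, the groups overlapped.

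Cofactors of the network showed no called gene among 16, with a median log2 fold change of -0.04. The 2 with the smallest p were *ZBTB17*, which encodes MIZ1, the factor through which MYC represses genes (0.31, 29.5 and 29.1 CPM against 36.5 and 35.9), and *HDAC1*, a deacetylase of the SIN3 complex (-0.28, 133 and 142 CPM against 109 and 118). Genes that control the turnover of the MYC protein or the transcription of its gene had a median of 0.13 over 15 genes, with 12 above 0 and none called. In this list *PIM1*, a kinase that stabilises MYC, was at 3.93 and 4.03 CPM in untreated cells and at 5.92 and 8.49 CPM with chaetocin, and *USP28*, a deubiquitinase of MYC, at 4.79 and 4.76 CPM against 8.86 and 6.49 CPM. Their adjusted p-values were 0.125 and 0.182 (edgeR's quasi-likelihood test). Without chaetocin sample 1, 1 of the 16 cofactors and 2 of the 15 turnover genes were called, beside 17.0% of all genes, and without chaetocin sample 2, 2 and 3, beside 9.82%. The median of the cofactors then ran from -0.078 to -0.021 and that of the turnover genes from 0.069 to 0.23 over the 4 samples left out in turn.

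Known target genes of the network were read in 4 lists, in a fit that called 1.85% of all genes tested. Of 28 nucleolar and ribosome production genes that MYC induces, 0 were called in either direction, 21 had a log2 fold change below 0 and the median was -0.16, beside 0.01 for all genes tested. Both chaetocin samples lay below both controls for 8 of the 28 and above them for 2, where the background is 26.0% and 26.8%. *NOLC1*, a nucleolar phosphoprotein gene, was at 125 and 137 CPM in untreated cells and at 95.5 and 82.9 CPM with chaetocin (log2 fold change -0.55, adjusted p = 0.0950, edgeR's quasi-likelihood test). *EXOSC5*, a subunit of the RNA exosome, was at 31.9 and 32.3 CPM against 26.4 and 23.4 CPM.

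Of 32 growth and metabolism genes that MYC induces, 0 were called (1.85% of all genes tested were), 22 were below 0 and the median was -0.19. Both chaetocin samples lay below both controls for 11 of the 32 and above them for 3, where the background is 26.0% and 26.8%. *SHMT1*, an enzyme of one-carbon metabolism, was at 36.0 and 35.9 CPM in untreated cells and at 51.0 and 51.5 CPM with chaetocin, opposite to the list's median (adjusted p = 0.102, edgeR's quasi-likelihood test). When single samples were left out, the median of the nucleolar list ran from -0.27 to -0.0099 and that of the metabolic list from -0.22 to -0.0068, and the values nearest 0 came without chaetocin sample 2, where the median of all genes tested was -0.011. Without chaetocin sample 1, 8 of the 28 nucleolar and 11 of the 32 metabolic genes were called, where 17.0% of all genes were, without chaetocin sample 2, 2 of each, where 9.82% were, and 0 without either control sample.

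Of the genes that MYC represses, 10 could be tested, and the median was -0.15. Of these, 1 was called lower and 0 higher, where 0.743% and 1.11% of all genes tested were. The called gene was *PDGFRB*, a receptor tyrosine kinase of growth factor signalling, which fell from 78.2 and 49.3 CPM to 23.5 and 17.2 CPM (log2 fold change -1.65, standard error 0.25, adjusted p = 0.0306 in edgeR's quasi-likelihood test). Without chaetocin sample 2 the log2 fold change was -1.45 and the adjusted p was 0.0538 (edgeR). The median of this list was -0.35 without chaetocin sample 1, with 5 genes called (17.0% of all genes), and -0.17 without control sample 2, with 3 called (2.1% of all genes). It was -0.068 without control sample 1 and -0.038 without chaetocin sample 2, each with 1 called (1.74% and 9.82% of all genes). Among 4 targets of MondoA and MLX that could be tested, *KLF10* was at 135 and 124 CPM in untreated cells and at 166 and 189 CPM with chaetocin, and *ARRDC4*, an arrestin that limits glucose uptake, at 60.0 and 59.8 CPM against 46.6 and 40.9 CPM. Neither passed the test, with adjusted p-values of 0.142 for each, and 3 of the 4 targets were called without chaetocin sample 1, where 17.0% of all genes were.

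The start regions of these lists were searched in the same way as those of the members. CACGTG stood in 38.7% of 31 windows of the nucleolar list and in 40.5% of 37 windows of the growth and metabolism list, compared with 9.11% of the windows of the tested genes found there. It also stood in 42.9% of 7 windows of the MondoA and MLX targets, in 27.3% of 11 windows of the genes that MYC represses, in 10.5% of 19 windows of the cofactors and of the turnover genes alike, and in 0 of 16 windows of the further E-box factors. By gene, 3 of the 8 members found in the table, which are all but *MYC*, held it, compared with 12.3% of the tested genes found there. Among the tested genes that have a window in the table, which are a part of the 16416, 1355 genes with CACGTG in a window had a median log2 fold change of -0.02 with 8 genes called higher and 10 lower, and 9634 genes with no CACGTG in any window had a median of -0.02 with 114 higher and 82 lower. The share called was 1.33% and 2.03%. Neither the medians nor the shares of the sets were compared by a test.

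The genes nearest to *MYC* in pattern over the 4 samples were sought among 9471 others with a mean of at least 10 CPM, by the distance between log2 levels after each gene's own mean was removed. They were *NOC3L* (distance 0.044), *MAP1B* (0.096) and *IARS* (0.10). *NOC3L* was at 57.6 and 72.9 CPM in untreated cells and at 43.9 and 44.9 CPM with chaetocin, so that control sample 2 was the highest, as for *MYC*. For *MXD3* they included *PAX6* (0.055) and *ATF3* (0.11). *PAX6* was at 15.2 and 13.7 CPM in untreated cells and at 28.7 and 24.6 CPM with chaetocin. With 4 samples many genes share such a pattern, and the distance is a description only.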

How the data were processed

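The authors deposited raw counts of reads per Ensembl gene, 1 table per sample, as whole numbers without normalization. The submitters' processing notes name cutadapt, TopHat2, TopHat, SAMtools and the build GRCh37. The counting tool and its strand setting are not given in the sources used here. Reads were single-end from polyadenylated RNA, and libraries were amplified by PCR, so counts include duplicates.

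Counts were analysed with edgeR 4.0.16 in R 4.3.3: filterByExpr (minimum count 10), TMM factors and a robust quasi-likelihood test of chaetocin against control without a block (2 samples per group), with Benjamini-Hochberg adjustment over all 16416 genes. Each standard error was the log2 fold change divided by the root of F, and unadjusted 95% intervals were built from it. Alternatives were DESeq2 1.42.0, other size factors and filters, a replicate block and leaving out each sample. The test was tested on simulated data with known changes. Replicate libraries differed by more than sampling noise. The chi-square statistic per degree of freedom was 21.8 for the control pair and 62.3 for the chaetocin pair.

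Symbols, positions and exon lengths came from GENCODE v29 on GRCh38, which lists 52338 of the 57905 identifiers. The rest took between 1.05% and 1.56% of the counts. *TXNIP* and *PECAM1* were not matched and are not analysed here.

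The members and lists were chosen with earlier results of these data known. Named genes were the 9 members, up to 4 called genes of each list (largest fold change) or else the 2 with the smallest p, and the 3 genes nearest in pattern to *MYC* and to the member other than *MYC* with the smallest p, on log2(CPM + 0.5). Outside this rule, *MLXIP* and *MGA* were named for their roles, genes that overlap a member for their position and single markers for their levels, after their values were seen. Reads per kilobase use exon lengths of another build than the alignment, so they are approximate. Some of the genes that the naming rule picked are not reported here.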

Additional observations from a re-analysis of the deposited data

How the results depend on the processing

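Samples carry the numbers 1 and 2 in both groups, but nothing else pairs them. The log2 difference between samples 1 and 2 correlated between the groups with r = 0.19 over genes, which are not independent replicates. With the replicate block, 1036 genes were called higher and 1053 lower, in place of 182 and 122. The block called 2 members, *MYC* (log2 fold change -0.55, edgeR's adjusted p = 0.0114) and *MXD3* (0.87, adjusted p = 0.00142), where 12.7% of all genes tested were called. Of the 113 tested genes in the 7 related lists, 5 were called higher and 5 lower, in place of 0 and 1. Residual degrees of freedom dropped from 2 to 1, while the median prior degrees of freedom, those borrowed across genes, rose from 6.29 to 41.5. Without a low-count filter, 787 genes were called higher and 759 lower, with 2 members called, a log2 fold change of -0.58 for *MYC* and 4 list genes lower. The number of genes tested in that setting is not given here, so neither is the share called. At least 10 reads in every sample gave 114 higher and 80 lower. DESeq2 gave 447 higher and 461 lower (5.53% of all genes tested), with 1 member higher (*MXD3*) and 2 list genes lower. Upper-quartile size factors gave 246 higher and 88 lower and called 1 member, *MXD3* (log2 fold change 0.94, edgeR's adjusted p = 0.0480). With these factors the median log2 fold change of all genes tested was 0.085, a shift of 0.077 from the main fit. For all of these, the cause was not tested.

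When single samples were left out, which assumes that the lone sample varies like the other group, 215 to 1332 genes were called higher and 97 to 1673 lower, 0 to 2 members were called, and in the lists 0 to 6 genes were higher and 1 to 24 lower. The largest counts of genes came without chaetocin sample 1. The log2 fold change ran from -0.73 to -0.39 for *MYC*, from 0.75 to 0.96 for *MXD3*, from -0.41 to 0.15 for *MXI1* and from -0.022 to 0.086 for *MNT*, and the difference of *MYC* from the mean of the repressors ran from -1.09 to -0.49. *MXI1* reversed to 0.11 and 0.15 and *MNT* to -0.022. The direction of *MYC* and *MXD3* held under each alternative run. Depth limits *MYCN* and *MYCL*, which had at most 13 reads in a library.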
